A study of Mus musculus with 16 samples.

Results

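The genes described here encode IL-2 and the receptor chains through which T cells sense IL-2, its relatives and IL-6. The list held 10 genes (Il2, Il2rb, Il2rg, Il7r, Il4ra, Il21r, Il15ra, Il9r, Il6ra and Il6st), and a gene was measured where a probe set, a group of probes on the array summarised to 1 value, carried its symbol and no other. By that rule 9 of the 10 were measured, among 19938 genes in all, each by a single probe set. Il2rg, the common gamma chain itself, was not analysed here.

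RNA was measured on expression arrays in regulatory T cells (Treg) of female wild-type C57BL/6 mice aged 8 to 12 weeks, taken from pooled lymph nodes of several sites. The cells were sorted by the surface proteins CD103, an integrin chain encoded by Itgae, and ICOS, a costimulatory receptor. The 4 subsets were CD103neg ICOSneg (double-negative), CD103pos ICOSneg (CD103 single-positive), CD103neg ICOSpos (ICOS single-positive) and CD103pos ICOSpos (double-positive), and RNA was taken either at once (fresh) or after 3 days in a culture assay of CD4 T cell suppression (activated). In the assay 200000 Treg met 1000000 naive CD4 cells carrying the Ly5.1 allele, 2000000 irradiated Rag2-/- splenocytes and 0.5 ug/ml of soluble anti-CD3, after which Treg were sorted again as Ly5.1neg CD4pos CD25pos cells. The 8 groups of subset and state had 2 arrays each, labelled biological replicates, and the design text speaks of 2 independent experiments. CD25, the protein of Il2ra, was thus a sort marker of the activated cells, and how many mice entered a sort is not given in the sources used here.

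IL-2, IL-4, IL-7, IL-9, IL-15 and IL-21 all signal through receptors that pair a private chain with the common gamma chain, and JAK kinases on those chains then phosphorylate STAT proteins. Treg depend on IL-2 from other cells for survival and for FOXP3, while FOXP3 represses their own Il2 gene. The IL-6 receptor does not use the common gamma chain: its binding chain, encoded by Il6ra, signals through gp130, encoded by Il6st and shared with the receptors for LIF and oncostatin M.

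Levels below are deposited log2 intensities, so a difference of 1 is a doubling of the measured intensity, and since intensities include background a fold understates the change of a dim gene. Array medians lay between 6.26 and 6.48. Foxp3 lay between 11.99 and 12.84 on the fresh arrays. The array labelled activated CD103neg ICOSpos replicate 2 stood apart from its partner: Foxp3 was 8.53 on it against 12.64, 12 of 14 markers of T cells and Treg were lower, with a median difference of -1.64, and 685 genes differed by more than 2-fold, against at most 413 in the other 7 pairs. The 7 markers of CD8 T and NK cells summed to a linear intensity of 2360 on it and to between 605 and 969 on the other 15 arrays, and Klrd1, an NK receptor gene, read 10.47 against 5.32 on the partner. Of the 7, Klrd1, Klrk1 (8.36 against 5.01) and Eomes (6.79 against 5.12) were higher than on the partner by more than 1, while Cd8a (6.11 against 5.95), Cd8b1 (8.62 against 8.89), Klrb1c (4.22 against 4.17) and Ncr1 (4.74 against 4.79) were not. That array stayed in the test, and calls that change without it are given both ways.

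The comparisons used limma, a linear model fitted across all 19938 genes and all 16 arrays, with Benjamini-Hochberg adjustment over all genes and a threshold of 0.05. Across 13 comparisons of 9 genes, 20 of 117 differences passed, 4 higher and 16 lower. Between 0.015% and 31.2% of all genes passed, depending on the comparison. The comparisons overlap, since activation averages its 4 subset comparisons, so the 117 are not separate results. The p-values measure the spread between 2 arrays per group, pooled over the 8 groups. Between activated and fresh cells, averaged over the 4 subsets, 5 of the 9 genes passed: Il4ra rose, and Il6ra, Il6st, Il9r and Il15ra fell. Over all genes 31.2% passed that comparison, and the median difference was -0.23 for the 9 genes and -0.003 for all genes. Among fresh cells ICOSpos exceeded ICOSneg for Il9r and fell short of it for Il4ra, and these 2 of 9 stood beside 6.53% of all genes. Among activated cells Il6st alone of the 9 passed by ICOS, where 6.94% of all genes did.

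CD103 status alone gave no call among the 9 genes by limma in either state, where 0.206% of all genes passed in fresh cells and 0.717% in activated cells. At an unadjusted p below 0.05 there were 3 of the 9 in fresh cells (Il2, Il7r and Il9r) and 2 in activated cells (Il15ra and Il6ra), where 7.49% and 12.1% of all genes reached that level. The interaction of CD103 with ICOS gave 0 calls as well, with 2 genes at an unadjusted p below 0.05 in fresh cells (Il2 and Il7r) and 1 in activated cells (Il6ra). Of all genes 0.0451% and 0.015% passed these interactions, and 4.96% and 2.60% had an unadjusted p below 0.05. Itgae, the CD103 gene, read 7.25 to 9.19 on fresh CD103neg and 11.77 to 12.37 on fresh CD103pos arrays. Activated ICOS single-positive replicate 1, CD103neg by label, read 10.00, beside 9.94 and 9.87 in CD103 single-positive and 11.18 and 11.08 in double-positive cells. The array that stood apart read 6.30 and the activated double-negative arrays 7.31 and 7.95. Icos read 10.4 to 11.47 on fresh ICOSneg and 12.61 to 13.31 on fresh ICOSpos arrays. Activated ICOSneg arrays read 11.63 to 12.12 for Icos. The array that stood apart, ICOSpos by label, read 11.25, below all of these, and the other activated ICOSpos arrays 12.87 to 12.91.

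**Figure D1:**
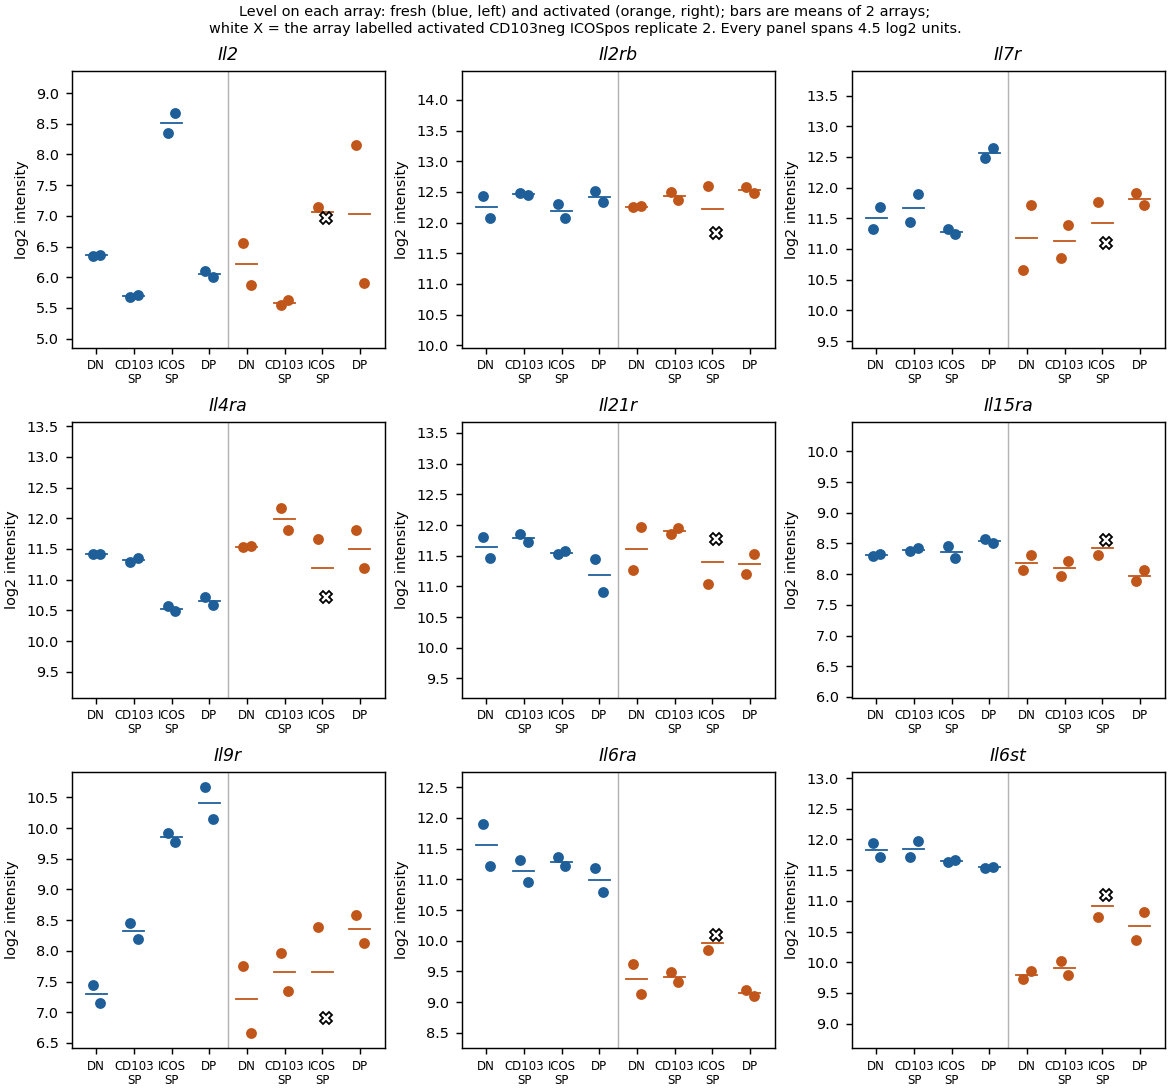
Log2 intensity of each of the 9 genes on each of the 16 arrays, by subset (DN double-negative, CD103 SP and ICOS SP single-positive, DP double-positive), with fresh arrays in blue on the left and activated arrays in orange on the right of each panel; bars are group means of 2 arrays and the white X is the array that stood apart. Il6ra and Il6st separate fresh from activated arrays without overlap, Il9r steps up with ICOS among fresh arrays, and Il2 is highest on the 2 fresh ICOS single-positive arrays (8.35 and 8.67).

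Il2, the cytokine gene, was measured at 6.35 and 6.36 on the fresh double-negative arrays and at 5.67 and 5.71 on the fresh CD103 single-positive arrays. It read 8.35 and 8.67 in fresh ICOS single-positive cells, against 6.10 and 6.01 in fresh double-positive cells. The fresh ICOS single-positive arrays thus lay above every other array of the series, while the fresh CD103 single-positive and double-positive arrays lay below the array medians. In bulk RNA, more cells that express a gene and more RNA per cell cannot be told apart. In the activated state Il2 read 6.56 and 5.87 in double-negative, 5.54 and 5.63 in CD103 single-positive, 7.14 and, on the array that stood apart, 6.97 in ICOS single-positive cells. Activated double-positive replicates read 8.16 and 5.91, the widest replicate gap of any gene of the list (2.25).

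In the main limma fit no Il2 difference passed. The ICOS difference in fresh cells was 1.26 (SE 0.36, adjusted p = 0.069), the CD103 difference -1.56 (SE 0.36, adjusted p = 0.168) and their interaction -1.79 (SE 0.73, adjusted p = 0.914). All groups share 1 spread per gene, so the gap between the activated double-positive replicates widened each of these errors. With the fresh arrays fitted alone, an alternative chosen after seeing the data, the same 3 differences had adjusted p = 0.000263, 0.00114 and 0.019. The fresh ICOS difference also passed with all arrays when dim genes were left out (adjusted p = 0.0372), with an intensity trend (0.0421) and with array weights (0.0488). With the replicate number as a block the ICOS difference passed in fresh and in activated cells, as given in the last paragraph. Within CD103neg cells the fresh ICOSpos mean was 4.46-fold the ICOSneg mean, and within CD103pos cells it was 1.29-fold. Activated ICOSpos exceeded ICOSneg by 1.15 (SE 0.36, adjusted p = 0.0898), and the average over the 4 subsets differed between states by -0.18 (95% confidence interval -0.75 to 0.39).

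Genes listed as markers of activated conventional CD4 cells were also higher on the fresh ICOS single-positive arrays. The 8 measured markers other than Il2 summed to linear intensities of 2940 and 2810 there and to between 1300 and 1840 on the other 6 fresh arrays. Among them Il21, the gene of a T helper cytokine, read 8.94 and 9.27 against at most 5.13, and Cd40lg, the gene of CD40 ligand, read 8.90 and 8.99 against at most 8.26. Il3 and Csf2, cytokine genes on the same list, stayed between 4.31 and 4.53 and between 4.93 and 5.30 on all 8 fresh arrays. Foxp3 read 11.99 and 12.34 on the fresh ICOS single-positive arrays. On the activated double-positive arrays the list summed to 5790 and 4810, where Il2 read 8.16 and 5.91. The part of other CD4 cells in the Il2 levels was not tested.

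The Il2 promoter is shown because its NFAT sites are the textbook route from T cell receptor signals to IL-2. The 250 bases before the start of Il2 lie at chr3:37125955-37126204 on the minus strand (RefSeq, GRCm38.p6), and capitals mark the core letters of NFAT sites, GGAAAA on either strand.
Il2: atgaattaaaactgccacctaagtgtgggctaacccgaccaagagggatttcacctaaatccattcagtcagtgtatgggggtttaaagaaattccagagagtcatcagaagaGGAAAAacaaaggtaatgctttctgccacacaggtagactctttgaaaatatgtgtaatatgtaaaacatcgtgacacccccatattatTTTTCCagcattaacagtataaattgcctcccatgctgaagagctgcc
These letters occurred at 2 places, 137 to 132 and 48 to 43 bases before the start, and 20.4% of 32851 promoter windows of this length held at least 1 such match. The window held none of the letters TTCNNNGAA (STAT sites), TGTTTAC (forkhead sites) or TGANTCA (AP-1 sites), searched on both strands, which 7.02%, 3.17% and 6.75% of windows hold. Its GC content was 40.4%, where the median window had 52.4%. A letter match describes the sequence and is not evidence of binding.

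Il2rb encodes the beta chain that the IL-2 and IL-15 receptors share. Its level was high in every subset and state: the 8 fresh arrays ran from 12.07 to 12.51 and the 8 activated arrays from 11.83 to 12.60, and the group means spanned only 0.35. No Il2rb difference passed by limma. Activated minus fresh was 0.03 (95% confidence interval -0.20 to 0.26), the ICOS difference -0.05 in fresh cells (-0.38 to 0.27) and 0.03 in activated cells (-0.29 to 0.35). Without the array that stood apart the activated ICOS difference was 0.22 (-0.02 to 0.46), and activated minus fresh in ICOS single-positive cells was 0.41 (0.04 to 0.78, adjusted p = 0.344). The largest replicate gap, 0.76, was in the activated ICOS single-positive group, where the array that stood apart was lowest.

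Il15ra, the chain that binds and presents IL-15, varied little. It read between 8.27 and 8.58 on the fresh arrays and between 7.89 and 8.55 on the activated arrays, so the states overlapped. The mean over subsets fell by 0.23 on activation (SE 0.07, limma adjusted p = 0.0187). In double-positive cells the difference was -0.57 (SE 0.13, adjusted p = 0.0156), from 8.58 and 8.51 to 7.89 and 8.06. Both calls were lost when the deposited values were quantile normalized again (-0.13, adjusted p = 0.207, and -0.38, adjusted p = 0.115).

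Il7r encodes the alpha chain of the IL-7 receptor, a survival receptor of resting T cells. Its fresh levels were 11.33 and 11.69 in double-negative cells, 11.44 and 11.90 in CD103 single-positive cells, 11.32 and 11.24 in cells single-positive for ICOS and 12.48 and 12.64 in double-positive cells. Fresh double-positive arrays therefore lay above all 14 others, of which the highest, an activated double-positive array, read 11.92. Activated levels were 10.65 and 11.71 in double-negative, 10.86 and 11.39 in CD103 single-positive and 11.92 and 11.71 in double-positive cells. Activated ICOS single-positive replicate 1 read 11.76, and the array that stood apart read 11.09.

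No Il7r difference passed by limma. In fresh cells CD103pos exceeded CD103neg by 0.72 (SE 0.23, adjusted p = 0.367), and the interaction of CD103 with ICOS was 1.11 (SE 0.47, adjusted p = 0.941). Fresh double-positive cells stood 1.85-fold above CD103 single-positive and 2.42-fold above ICOS single-positive cells, with no overlap in either pair. Activated minus fresh was -0.37 (95% confidence interval -0.73 to 0.00, adjusted p = 0.125). Fresh double-positive arrays also had high summed intensities of the 8 measured B cell markers, 1740 and 1540. The sums were 1580 and 1230 on the fresh CD103 single-positive arrays, where Il7r read 11.44 and 11.90. Fresh double-negative and ICOS single-positive arrays had sums of 713 to 1010. Among the 8, Cd79b read 8.63 to 9.91 on the fresh arrays, Blk at most 8.66 and Cd22 at most 7.93, and the other 5 at most 6.53. What part such cells had in the Il7r levels was not tested.

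Il4ra encodes the chain that binds IL-4 and also serves the IL-13 receptor. In fresh cells it was 11.42 and 11.41 in double-negative and 11.29 and 11.35 in CD103 single-positive cells. The ICOSpos subsets were lower, at 10.57 and 10.49 in single-positive and 10.71 and 10.59 in double-positive cells, with no overlap. The fresh ICOS difference was -0.78 (SE 0.19, limma adjusted p = 0.0327), or 1.71-fold. It held without the array that stood apart (adjusted p = 0.00351), but the loss of any 1 of the 8 fresh arrays raised the adjusted p above the threshold, to at most 0.111, while the difference stayed between -0.81 and -0.75.

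After activation Il4ra was 11.53 and 11.55 in double-negative, 12.16 and 11.81 in CD103 single-positive and 11.81 and 11.19 in double-positive cells. Activated ICOS single-positive cells read 11.67 on replicate 1 and 10.72 on the array that stood apart. Averaged over subsets Il4ra rose by 0.57 (SE 0.13, adjusted p = 0.00624), and by 0.69 without the array that stood apart (adjusted p = 0.000255). No single subset passed in the main fit to all arrays. Double-positive cells passed with quantile normalization, with dim genes left out, with an intensity trend and with array weights (adjusted p = 0.0388 to 0.0479). Double-positive and CD103 single-positive cells also passed with the replicate number as a block, as given in the last paragraph. Without that array 3 subsets passed, rising by 0.67 in CD103 single-positive (adjusted p = 0.0238), 1.14 in ICOS single-positive (adjusted p = 0.0325) and 0.85 in double-positive cells (adjusted p = 0.0104). In double-negative cells the difference was 0.12 in both fits. The change of the ICOS difference between states was 0.36 (SE 0.27, adjusted p = 0.472), and 0.60 without that array (SE 0.19, adjusted p = 0.107).

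Il21r, the private chain of the IL-21 receptor, gave no call in any comparison by limma. Fresh arrays read between 10.91 and 11.85 and activated arrays between 11.04 and 11.96, and neighbouring groups in the order of means overlapped throughout. Activated minus fresh was 0.03 (95% confidence interval -0.27 to 0.34). The ICOS difference was -0.35 in fresh cells (-0.78 to 0.08) and -0.37 in activated cells (-0.80 to 0.06), or -0.55 there without the array that stood apart (-0.97 to -0.14, adjusted p = 0.12). Il21, the gene of its ligand, was the only ligand listed that passed by ICOS in fresh cells, at 2.34 (SE 0.59, adjusted p = 0.0399), on account of the ICOS single-positive arrays described above.

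Il9r, the private chain of the IL-9 receptor, had the largest span of fresh group means among the 9 genes. It read 7.44 and 7.15 in double-negative cells, 8.46 and 8.19 in CD103 single-positive cells, 9.92 and 9.78 in cells single-positive for ICOS and 10.67 and 10.14 in double-positive cells. The 4 fresh subsets formed that order with no overlap between neighbours. ICOSpos exceeded ICOSneg by 2.32 (SE 0.32, limma adjusted p = 0.00143), or 4.99-fold, and the difference was 5.88-fold within CD103neg and 4.23-fold within CD103pos cells. The CD103 difference in fresh cells was 0.79 (SE 0.32, adjusted p = 0.574). Without the array that stood apart the ICOS difference had adjusted p = 0.000197.

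Activated levels of Il9r were 7.76 and 6.66 in double-negative, 7.96 and 7.35 in CD103 single-positive and 8.59 and 8.12 in double-positive cells. Activated ICOS single-positive replicate 1 read 8.39, and the array that stood apart read 6.91. Replicate 1 was above replicate 2 in every activated subset, as it was in every fresh subset. The double-positive arrays lay above those of both ICOSneg subsets and overlapped with ICOS single-positive cells. The activated ICOS difference was 0.57 (SE 0.32, adjusted p = 0.393), and 0.94 without the array that stood apart (SE 0.27, adjusted p = 0.0704). Averaged over subsets Il9r fell by 1.25 (SE 0.23, adjusted p = 0.00132). It fell in double-positive cells (-2.05, SE 0.46, adjusted p = 0.0129) and in ICOS single-positive cells (-2.20, SE 0.46, adjusted p = 0.0352). The second difference was -1.47 without the array that stood apart (adjusted p = 0.137). The differences in double-negative and CD103 single-positive cells were -0.08 and -0.67 (SE 0.46 each), neither past the threshold. The ICOS difference was smaller in activated than in fresh cells, by a change of -1.75 (SE 0.46, adjusted p = 0.0448), or -1.38 without that array (adjusted p = 0.0535).

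**Figure D2:**
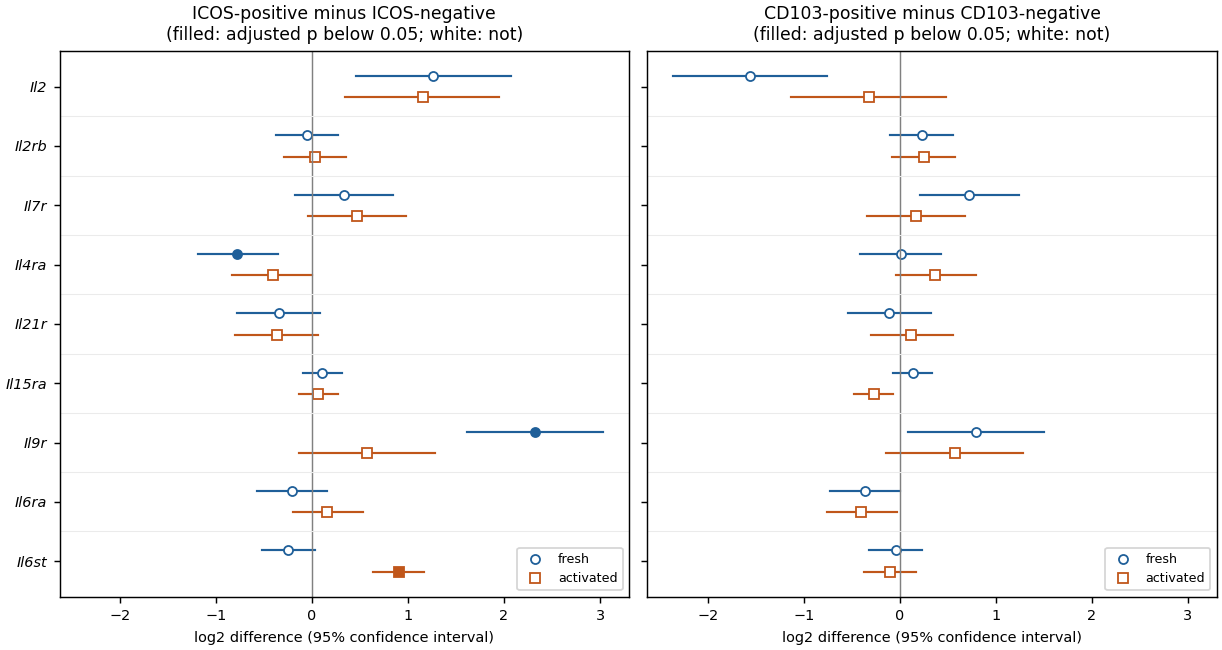
Log2 difference between ICOS-positive and ICOS-negative cells (left) and between CD103-positive and CD103-negative cells (right) for each of the 9 genes, in fresh (blue circles) and activated (orange squares) cells, with 95% confidence intervals from the fit to all 16 arrays; filled symbols passed an adjusted p of 0.05. Il9r (2.32) and Il4ra (-0.78) are filled for ICOS in fresh cells and Il6st (0.90) in activated cells, and no symbol is filled for CD103.

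The IL-6 receptor genes gave the clearest differences between states. Il6ra read 11.90 and 11.22 in double-negative cells, 11.31 and 10.96 in CD103 single-positive cells, 11.36 and 11.21 in cells single-positive for ICOS and 11.18 and 10.79 in double-positive fresh cells. After activation it read 9.62 and 9.14, 9.49 and 9.33, 9.85 and, on the array that stood apart, 10.09, and 9.19 and 9.10 in the same order. The lowest fresh array thus lay above the highest activated array. Il6ra fell by 1.77 on average (SE 0.12, limma adjusted p = 8.87e-07), or 3.40-fold. It fell in all 4 subsets, with differences of -2.18 for double-negative (adjusted p = 0.000104), -1.72 for CD103 single-positive (adjusted p = 0.000384), -1.32 for ICOS single-positive (adjusted p = 0.0171) and -1.84 in double-positive cells (adjusted p = 0.000641). The ICOS single-positive difference was -1.44 without the array that stood apart (adjusted p = 0.0402), and that call was lost without either fresh replicate of the subset or without activated replicate 1. Of the markers of other cells, the B cell markers summed to 713 to 1740 on fresh and 359 to 806 on activated arrays. The sums of 11 myeloid and dendritic markers overlapped between the states, at 646 to 1570 and 645 to 1120. Those of the CD8 T and NK markers overlapped as well, at 605 to 969 and 644 to 954, with 2360 on the array that stood apart. Their part in the IL-6 receptor levels was not tested.

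Il6st, the gp130 gene, was nearly level among fresh subsets, between 11.54 and 11.98 on all 8 arrays. Activated double-negative cells read 9.72 and 9.85 and CD103 single-positive cells 10.02 and 9.79. Activated double-positive cells read 10.36 and 10.82, and ICOS single-positive cells 10.73 on replicate 1 and 11.09 on the array that stood apart. All activated arrays lay below all fresh arrays, and the 4 activated ICOSpos arrays lay above the 4 activated ICOSneg arrays. The mean over subsets fell by 1.42 (SE 0.09, adjusted p = 4.75e-07), or 2.68-fold.

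Il6st fell in double-negative (-2.04, adjusted p = 1.74e-05), CD103 single-positive (-1.95, adjusted p = 2.07e-05) and double-positive cells (-0.95, adjusted p = 0.00478). In ICOS single-positive cells the difference was -0.74 (SE 0.17, adjusted p = 0.0589). That difference passed with array weights (adjusted p = 0.0418) and with the replicate number as a block, as given in the last paragraph. Among activated cells ICOSpos exceeded ICOSneg by 0.90 (SE 0.12, adjusted p = 0.00431), while in fresh cells the difference was -0.25 (SE 0.12, adjusted p = 0.327). The difference between these, 1.15 (SE 0.17, adjusted p = 0.00313), passed, and it was 1.06 without the array that stood apart (adjusted p = 0.00612). For Il6ra the change of the ICOS difference had the same sign but did not pass by limma (0.37, 95% confidence interval -0.15 to 0.89, adjusted p = 0.404). The 2 genes were not compared with each other by a test.

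By subset, 2 of the 9 genes passed between activated and fresh double-negative cells, where 16.2% of all genes passed. In CD103 single-positive cells 2 passed as well (20.2%), in both cases Il6ra and Il6st. In ICOS single-positive cells Il9r and Il6ra passed, 2 of 9 beside 2.09% of all genes. In double-positive cells Il15ra, Il9r, Il6ra and Il6st passed, 4 of 9 beside 14.1%. The change of the ICOS difference between states passed for Il9r and Il6st, 2 of 9 beside 6.72% of all genes, and for Il6st alone without the array that stood apart, beside 5.92%. Without that array activation moved 5 of the 9 on average over subsets (30.7% of all genes), 2 in double-negative cells (17.2%), 3 in cells single-positive for CD103 (21.1%), 2 in those single-positive for ICOS (1.62%) and 5 in double-positive cells (14.8%), and ICOS moved 2 in fresh (7.81%) and 1 in activated cells (6.65%). The change of the CD103 difference passed for 0 of 9 by limma, and for 0.296% of all genes. At an unadjusted p below 0.05 there were 2 of 9 (Il2 and Il15ra) and 10.6% of all genes.

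**Figure D3:**
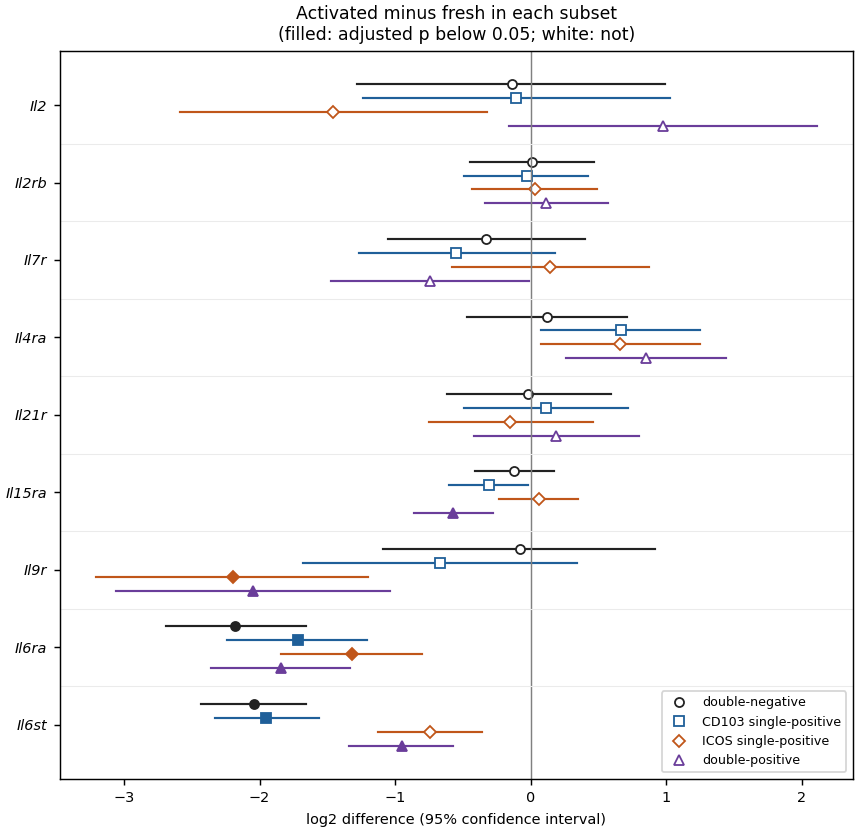
Log2 difference between activated and fresh cells for each of the 9 genes in each of the 4 subsets, with 95% confidence intervals from the fit to all 16 arrays; filled symbols passed an adjusted p of 0.05. Il6ra is filled in all 4 subsets (-1.32 to -2.18), Il6st in 3, and Il9r only in the ICOSpos subsets.

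The promoters of Il6ra and Il6st are shown because these genes fell together. The 250 bases before Il6ra lie at chr3:89913197-89913446 on the minus strand, and those before Il6st at chr13:112463820-112464069 on the plus strand (RefSeq, GRCm38.p6). Neither window held any of the 4 motifs searched, so no letter is in capitals.
Il6ra: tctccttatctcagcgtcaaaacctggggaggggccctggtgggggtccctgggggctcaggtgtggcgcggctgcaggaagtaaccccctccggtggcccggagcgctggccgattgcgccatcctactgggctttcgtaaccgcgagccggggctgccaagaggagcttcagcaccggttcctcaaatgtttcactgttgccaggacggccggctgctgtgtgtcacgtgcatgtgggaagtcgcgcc
Il6st: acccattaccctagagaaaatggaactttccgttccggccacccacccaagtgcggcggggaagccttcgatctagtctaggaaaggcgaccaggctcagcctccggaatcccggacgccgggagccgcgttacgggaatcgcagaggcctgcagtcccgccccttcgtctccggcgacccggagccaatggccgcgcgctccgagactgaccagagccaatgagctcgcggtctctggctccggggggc
Their GC contents were 65.2% and 66.0%, where the median window had 52.4%. The missing letters say only that these windows lack them.

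Other genes followed the listed genes across the 15 arrays without the array that stood apart, by Pearson's r among 18208 genes. Those given are the 3 closest to each gene whose group means spanned at least 1, and the gap between fresh and activated arrays enters each r. Il6ra ran closest to Bcl7b (0.986), Rslcan18 (0.981) and Tgfbrap1 (0.969), and Il6st to Il16 (0.966), Abcg1 (0.963) and Slfn5 (0.958). Il9r ran closest to Nav2 (0.968), Chdh (0.963) and Fgf16 (0.959), and Il4ra to Gng12 (0.945), Ncoa3 (0.928) and Ndrg2 (0.923). Il7r was followed by Vps54 (0.898), Ccser2 (0.883) and Eif4e3 (0.877). The weakest match was for Il2, with Ccl1, a chemokine gene, at 0.847, Cd109 at 0.829 and Msra at 0.801.

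The rest of the pathway was read from 5 lists, with 48 of 53 genes measured. Of 13 measured ligand genes, 7 rose and 1 fell on activation, where 31.2% of all genes passed, with a median difference of 0.45, beside -0.003 for all genes. Lif, the gene of a gp130 cytokine, rose by 3.26 (SE 0.11, adjusted p = 5.97e-09), Il13, a type 2 cytokine gene, by 3.02 (SE 0.58, adjusted p = 0.00177) and Il21 by 2.0 (SE 0.42, adjusted p = 0.00333). The Il21 rise was not seen in ICOS single-positive cells, at 8.94 and 9.27 fresh, 7.59 on activated replicate 1 and 9.23 on the array that stood apart. Activated double-negative replicates of Il21 read 6.21 and 9.60. Il9, the gene of the Il9r ligand, rose by 2.48 (SE 0.80, adjusted p = 0.0343), but by 4.29 in replicate 1 and 0.68 in replicate 2. By ICOS in activated cells Lif was lower in ICOSpos cells (-0.93, SE 0.16, adjusted p = 0.00837), where Il6st was higher, and no other ligand passed with all arrays. Without the array that stood apart Il13 passed as well (4.21, adjusted p = 9.09e-05, against 2.94, adjusted p = 0.0547, with it), as did Il6 (0.81, adjusted p = 0.018).

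Of 7 other receptor chains 1 rose and 1 fell on activation, beside 31.2% of all genes, with a median of -0.02. Il12rb2, the signalling chain of the IL-12 receptor, rose by 5.41 (SE 0.25, adjusted p = 5.20e-08), or 42.5-fold, and Il27ra, which pairs with gp130 in the IL-27 receptor, fell by 0.96 (SE 0.13, adjusted p = 0.000135). Il13ra1, the partner of Il4ra in the IL-13 receptor, was higher by 0.84 in fresh ICOSpos cells (SE 0.16, adjusted p = 0.0102), where Il4ra was lower. Of 7 JAK and STAT genes, Stat5a (0.53) and Stat3 (0.41) rose and Jak1 (-0.57) and Tyk2 (-0.50) fell on activation, with adjusted p between 9.73e-05 and 0.00308. JAK1 is the kinase that Il2rb, Il7r, Il4ra and gp130 chains all bind.

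Feedback regulators of the SOCS family and genes known as STAT5 targets formed a list of 13, of which 7 rose and 2 fell on activation (31.2% of all genes passed), with a median of 0.51. Osm, which is also on the ligand list, rose by 0.88 (SE 0.15, adjusted p = 0.000995), Ptpn2, a phosphatase of JAK and STAT proteins, by 0.78 (SE 0.16, adjusted p = 0.00262) and Socs1 by 0.76 (SE 0.15, adjusted p = 0.00177). Il2ra rose by 0.48 (SE 0.13, adjusted p = 0.0141), and its protein was used to sort the activated cells. Sh2b3, an inhibitory adaptor, fell by 0.78 (SE 0.23, adjusted p = 0.0242). In fresh ICOSpos cells, where 6.53% of all genes passed, 3 of the 13 were lower and 0 higher: Bcl2, a survival gene, by a log2 difference of -2.08 (SE 0.31, adjusted p = 0.00237), Myc by -0.77 (SE 0.13, adjusted p = 0.00371) and Mcl1 by -0.49 (SE 0.12, adjusted p = 0.0328).

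Regulators of Il7r, with the genes that share the resting programme it belongs to, fell on activation in 6 of 9 cases and rose in 0, beside 31.2% of all genes that passed, with a median of -0.50. Foxp1, a repressor of Il7r, fell by 1.40 (SE 0.14, adjusted p = 2e-05), Klf2, a quiescence factor, by a difference of -1.34 (SE 0.26, adjusted p = 0.00203), S1pr1, the lymph node exit receptor, by -0.60 (SE 0.08, adjusted p = 0.000187) and Runx1 by -0.53 (SE 0.15, adjusted p = 0.0172). Il7r itself did not pass. In fresh ICOSpos cells Ccr7, a lymph node homing receptor, was lower (-1.06, SE 0.28, adjusted p = 0.0462), as was S1pr1 (-0.87, SE 0.12, adjusted p = 0.00118). The ICOS difference of S1pr1 turned in activated cells to 0.73 (SE 0.12, adjusted p = 0.00684), a change of 1.60 (SE 0.17, adjusted p = 0.000235), and that of Klf2 changed by 2.29 (SE 0.52, adjusted p = 0.0251).

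**Figure D4:**
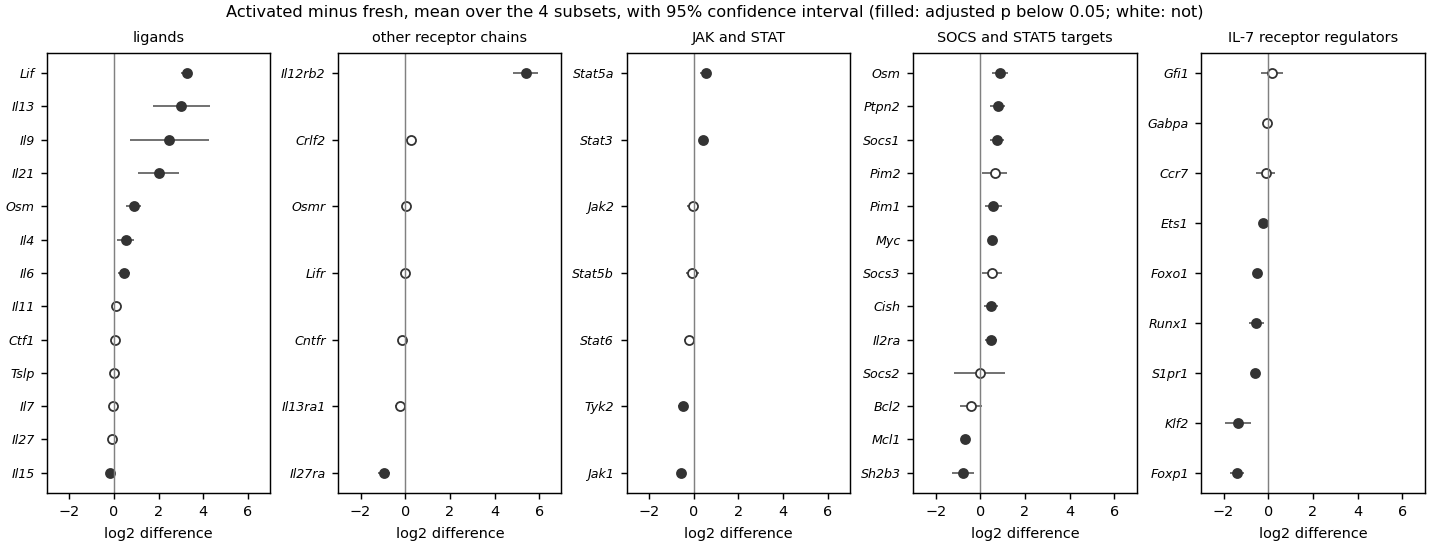
Log2 difference between activated and fresh cells, averaged over the 4 subsets, for each measured gene of the 5 pathway lists, with 95% confidence intervals; filled circles passed an adjusted p of 0.05. Il12rb2 (5.41), Lif (3.26) and Il13 (3.02) lie farthest to the right, and Foxp1 (-1.40) and Klf2 (-1.34) farthest to the left.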

How the data were processed

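RNA of 16 samples in 8 groups was measured on Affymetrix expression arrays with 35556 probe sets. The deposited values are log2 intensities made by the authors. The submitters' processing notes name RMA and affy, with versions and settings not given in the sources used here. Values ran from 3.02 to 14.2, and no second normalization was applied. Arrays carry no counting depth, and 2 arrays per group limit the precision.

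The annotation gave 21789 probe sets exactly 1 symbol, and the brightest over all arrays stood for each of 19938 genes. The test was limma 3.58.1 (R 4.3.3) with 8 group means, 13 comparisons and 8 residual degrees of freedom (prior 2.90), and dim genes were kept. The code was tested on simulated data.

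Members and lists were chosen with earlier results of these data known. Named are all members, up to 4 genes per list and comparison past the threshold, and the 3 genes most like each member whose group means span 1 or more. Promoters came from RefSeq (GRCm38.p6), and no other coordinates are given, since no source names the array annotation's build. Alternatives were each array left out, the array that stood apart left out, quantile normalization, an intensity trend, array weights, a filter on dim genes, the mean of probe sets, the replicate number as a block, and, added after seeing the data, each state fitted alone.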

Additional observations from a re-analysis of the deposited data

Results flagged for a closer look

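The ICOS difference of 2 genes changed between fresh and activated cells by a direct test of that change (limma, adjusted over all genes). Il9r changed by -1.75 (SE 0.46, adjusted p = 0.0448), from 2.32 in fresh to 0.57 in activated cells, and by -1.72 in replicate 1 and -1.78 in replicate 2. Without the array labelled activated CD103neg ICOSpos replicate 2 the change was -1.38 (adjusted p = 0.0535), and leaving out each array in turn it was called in 2 of 16 fits.

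Il6st changed by 1.15 (SE 0.17, adjusted p = 0.00313), from -0.25 in fresh to 0.90 in activated cells, and by 0.92 in replicate 1 and 1.38 in replicate 2. It was called in 16 of 16 fits that each left out 1 array, at 1.03 to 1.26. On the array that stood apart Il9r was lower than on its partner by 1.47 and Il6st higher by 0.36, and the part of that array's other cell markers in these values was not tested.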

How the results depend on the processing

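Calls on Il6ra and Il6st kept their direction and passed in every alternative run, except Il6ra on activation of ICOS single-positive cells, called in 13 of 16 fits that left out 1 array. Of all values for single genes recomputed under an alternative, 773 kept direction and side of the threshold, 44 came to pass, 42 no longer passed and 3 reversed. The 3 reversals were of Il2, which passed in none of these comparisons: with each array left out in turn its activated CD103 difference ran from -0.89 to 0.24 and its activation difference from -0.46 to 0.10 (without activated double-positive replicates 1 and 2), and its activation difference in double-positive cells from -0.15 to 2.1 (the same 2 arrays). The count of the 9 genes called ranged, with each array left out in turn, from 0 to 1 for CD103 and 1 to 3 for ICOS in fresh cells, 0 to 2 for CD103 and 1 to 2 for ICOS in activated cells, 0 to 4 for activation in ICOS single-positive and 2 to 5 in double-positive cells, and for the change between states from 0 to 1 by CD103 and 1 to 2 by ICOS. With dim genes left out activated ICOS gave 2 calls in place of 1, the second being Il2 (1.15, adjusted p = 0.0489). Without the array that stood apart the change by ICOS gave 1 in place of 2. Fresh arrays alone, chosen after seeing the data, gave 1 call each for CD103 and the interaction in place of 0, in both cases Il2. Except without the array that stood apart, the shares of all genes that passed in these alternative fits are not given here. The counts in them are therefore not read as results about the 9 genes. Il15ra on activation was also lost with an intensity trend (adjusted p = 0.0531), as was Il15ra in double-positive cells in 3 of 16 fits, Il9r in double-positive cells in 2 of 16, and Il9r in ICOS single-positive cells was called in 9 of 16 (-2.94 to -1.47, adjusted p up to 0.211). The cause of these changes was not tested.

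With the replicate number as a block activated ICOS gave 2 calls, adding Il2 (adjusted p = 0.0488). Il2 by ICOS in fresh cells (adjusted p = 0.0371), Il4ra on activation of CD103 single-positive (0.0469) and double-positive cells (0.0196) and Il6st on activation of ICOS single-positive cells (0.0303) also came to pass, and no call was lost. Same-numbered arrays deviated together in 27 of 28 pairs of groups (r over 0.1; lowest -0.0158, median 0.233). In each of the 8 groups the arrays correlated best with their own number. The 2 arrays of a group deviate from its mean by mirrored amounts, so both always give the same answer and count once. The shared deviation is a hint from the data, since no source says that the numbers pair the samples.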
